A study of Homo sapiens with 16 samples.

Results

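LINC genes are long intergenic noncoding RNAs that carry a registered LINC number. Their RNAs are transcribed like messenger RNAs, are usually spliced and polyadenylated, and are classed as noncoding. Many are present at low levels and in few cell types, and some act on a gene beside them or on the chromatin where they are made, while others work in the cytoplasm. Few LINC RNAs have a known role in airway epithelium. The members described here are the LINC probes that were measured well in every library. They were selected on the measured signal, as all probes, control spots aside, whose gene name on the array is LINC followed by a number and whose spot was well above background on all 16 arrays. This rule kept 495 of the 2959 LINC probes on the array, or 16.7%, and these probes belong to 380 of 1652 LINC genes. The same detection on all 16 arrays held for 43.2% of all 58201 probes without controls. The rule used every array, so the detection of the members is a description, and any shift of their levels is read beside all other probes.

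The RNA came from 16HBE cells, a line of human bronchial epithelial cells immortalised with SV40 large T antigen. The 16HBE-WT cells carry the MET receptor tyrosine kinase in its normal form. The 16HBE-ex14 cells are 1 genome-edited clone, named F, in which MET lacks exon 14, the part that holds the site through which the receptor is marked for degradation. Because they are 1 clone, an effect of the edit and a trait of that clone cannot be told apart. Both were starved for 2 h and then kept for 24 h with or without hepatocyte growth factor (HGF, 20 ng/mL), the ligand of MET, which gave 4 groups with 4 arrays each, named 16HBE-ex14 and 16HBE-WT without HGF, and 16HBE-ex14+HGF and 16HBE-WT+HGF with it. The replicates were cultures 1 week apart in the methods, but the arrays are not tied to weeks, so a replicate number only names an array here.

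All levels are log2 values of the processed spot signal minus the 75th percentile of the same array, so a level of 0 lies at that percentile. A level depends on the probe as well as on the RNA, and levels of different probes were not set against each other as amounts. The scanner software placed 49.0% to 60.3% of the probes of an array well above background. The number of LINC probes in that class was 761 to 882 in 16HBE-WT, 694 to 953 in 16HBE-WT+HGF, 791 to 966 without HGF in the edited cells and 920 to 1115 with it. The arrays lay on 2 slides, and the slide was visible in the members. The first principal component of the 495 probes held 28.3% of their variance and separated the genotypes within each slide. The second held 23.0% and separated the slides, and also the genotypes within each slide. Each slide held 2 arrays of every group, so values within each slide are given where they matter. All 7 epithelial markers were well above background on all 16 arrays, TP63 as the dimmest, with group means from -3.806 to -3.375. COL1A2, COL3A1 and PECAM1, which mark fibroblasts and endothelial cells, were above background on none. LUM, another fibroblast marker, was above background on 8 arrays, with group means of -2.94 in 16HBE-WT and -3.52 in 16HBE-WT+HGF against -6.60 and -7.01 in the 2 groups of 16HBE-ex14 cells. Probes for the leukocyte markers PTPRC and CD3E, the fibroblast markers COL1A1 and PDGFRB and the endothelial markers CDH5 and VWF were above background on all 16 arrays, with group means between -3.73 and -1.36. Of the epithelial markers, KRT5 moved with the groups, from 2.63 in 16HBE-WT to -2.26 in 16HBE-ex14+HGF. The part of these markers in the results on LINC RNAs was not tested. The MET probe read 4.82 to 5.26 over all arrays, and whether it can tell the edited from the normal transcript was not looked up.

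The probes below carry the main results. They are printed because the call of a LINC gene rests on 60 bases, and because the calls of the probes of 1 gene often differed. Sequences are those of the array, 5′ to 3′, with hg19 coordinates from the same files. Where a gene has several member probes, they are lettered by their start coordinate. Capitals mark bases that occur in both printed probes of a gene.

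The first set holds the probes with the largest rises and falls after HGF in 16HBE-ex14 cells, with the other member probes of the same genes, which did not pass. LINC00941 lies on chromosome 12, LINC02454 beside HMGA2 on the same chromosome, LINC00565 on chromosome 13, LINC00513 on chromosome 7 and LINC01260 on chromosome 20.
LINC00941 probe a (chr12:30949077-30949136, + strand): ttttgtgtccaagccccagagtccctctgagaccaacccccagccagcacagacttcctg
LINC00941 probe b (chr12:30954787-30954846, + strand): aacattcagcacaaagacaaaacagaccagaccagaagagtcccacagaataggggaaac
LINC00941 probe c (chr12:30955134-30955193, + strand): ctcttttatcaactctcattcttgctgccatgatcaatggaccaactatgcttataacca
LINC00941 probe d (chr12:30955519-30955578, + strand): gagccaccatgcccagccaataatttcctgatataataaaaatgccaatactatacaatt
LINC02454 (chr12:65999949-66000008, + strand): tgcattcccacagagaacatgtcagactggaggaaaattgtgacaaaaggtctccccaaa
LINC00565 (chr13:114629737-114629796, - strand): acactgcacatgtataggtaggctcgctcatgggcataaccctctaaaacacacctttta
LINC00513 probe a (chr7:130598325-130598384, + strand): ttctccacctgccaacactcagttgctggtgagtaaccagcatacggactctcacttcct
LINC00513 probe b (chr7:130606643-130606702, + strand): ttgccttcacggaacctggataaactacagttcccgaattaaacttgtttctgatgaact
LINC01260 (chr20:43285419-43285478, - strand): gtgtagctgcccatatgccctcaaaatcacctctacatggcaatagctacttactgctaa

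The second set holds probes that differed between the genotypes both without and with HGF. The coordinates of LINC01127 probe a and LINC01615 probe b span 822 and 4246 bases, more than the 60 bases of a probe, as for a probe that crosses a splice junction. The 2 probes of LINC02298 share 41 bases and are close to 1 measurement made on 2 spots.
LINC01127 probe a (chr2:102600262-102601083, + strand): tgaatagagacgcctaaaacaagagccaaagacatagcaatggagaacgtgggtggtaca
LINC01127 probe b (chr2:102601939-102601998, + strand): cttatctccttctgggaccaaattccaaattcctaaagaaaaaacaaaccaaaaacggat
LINC01133 (chr1:159948636-159948695, + strand): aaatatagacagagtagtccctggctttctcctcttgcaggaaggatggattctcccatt
LINC01615 probe a (chr6:169558362-169558421, - strand): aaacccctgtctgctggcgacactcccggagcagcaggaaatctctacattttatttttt
LINC01615 probe b (chr6:169558551-169562796, - strand): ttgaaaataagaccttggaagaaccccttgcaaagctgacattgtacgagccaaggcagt
LINC01089 probe a (chr12:122233207-122233266, - strand): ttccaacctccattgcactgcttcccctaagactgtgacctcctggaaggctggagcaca
LINC01089 probe b (chr12:122237753-122237812, - strand): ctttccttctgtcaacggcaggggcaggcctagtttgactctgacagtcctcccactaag
LINC02298 probe a (chr14:105561977-105562036, + strand): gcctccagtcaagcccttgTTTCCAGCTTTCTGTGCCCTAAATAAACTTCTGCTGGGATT
LINC02298 probe b (chr14:105561996-105562055, + strand): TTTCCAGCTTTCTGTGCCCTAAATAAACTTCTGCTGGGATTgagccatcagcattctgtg

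The members were dim. Their mean level over the 16 arrays had a median of -1.80 and ran from -3.72 to 8.19, against a median of 0.07 for all probes detected on every array, and 95 members (19.2%) lay above 0. The median SD within groups was 0.26 for the members and 0.20 for all probes detected on every array. The probes of highest level were those of LINC01356 (8.19 ± 0.16, mean ± SD over 16 arrays), LINC02138 (5.75 ± 0.33), LINC01122 probe c (5.64 ± 0.18), LINC01001 probe b (5.15 ± 0.29) and LINC01684 (5.13 ± 0.23). None of these 5 probes was called in a comparison. The steadiest were LINC01881 probe a (3.52 ± 0.08), LINC01832 (-0.83 ± 0.10) and LINC02265 (1.33 ± 0.10). LINC01881 probe a read 3.46 ± 0.08 in 16HBE-WT, 3.61 ± 0.04 with HGF, 3.53 ± 0.05 in 16HBE-ex14 and 3.48 ± 0.05 with HGF (SD, n = 4). The widest spread was that of LINC00941 probe c, LINC02454 and LINC01127 probe b, with SDs over 16 arrays of 1.01, 0.90 and 0.89.

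The limit of detection decided membership for many dim probes. The dimmest members were LINC02174 at a mean level of -3.72, LINC00592 at -3.64 and LINC00313 probe a at -3.61. Just outside were 72 LINC probes above background on 15 of the 16 arrays, at mean levels from -3.90 to -2.54. LINC00908 at -2.54, LINC02414 at -2.79 and LINC02605 at -2.81 were the brightest of these. Of the other LINC probes, 559 passed on 4 to 15 arrays (these 72 among them), 430 on 1 to 3 and 1475 on none.

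The first question was which LINC RNAs respond to HGF when the receptor lacks exon 14. Compared with 16HBE-ex14, 12 member probes of 11 LINC genes changed in 16HBE-ex14+HGF by the limma test with adjusted p below 0.05 and a fold change above 1.5, which is 0.58 on the log2 scale. They were 2.42% of the members, against 2.00% of all 34600 tested probes and 2.26% of the 25122 probes detected on every array. The members' share was thus near the background. The 9 probes that rose belong to 8 genes and were 1.82% of the members (1.05% of all tested probes), and the 3 that fell were 0.606%, against 0.957%. In all 12, the 4 arrays with HGF did not overlap the 4 without. Such separation occurred in 42 members, 8.48%, and in 10.1% of all probes detected on every array.

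LINC00941, a LINC RNA studied in several carcinomas, gave the largest rise, in 2 of its 4 probes. Probe c read -1.13, -1.74, 0.03 and -1.10 in the 4 16HBE-ex14 arrays and 0.30, 0.68, 1.14 and 1.03 after HGF. In 16HBE-WT it read -1.98, -1.42, -1.74 and -1.36, and -0.48, -1.02, -0.40 and -1.0 with HGF. The HGF arrays were above the others in both genotypes, and 16HBE-ex14 replicate 3 lay closest to them. The difference was 1.77 ± 0.31 (log2 ± SE, adjusted p = 0.00691) in 16HBE-ex14 and 0.90 ± 0.31 (adjusted p = 0.892) in 16HBE-WT. Probe b, which lies in the same stretch of the gene, read -0.82, -1.46, 0.01 and -1.08 in 16HBE-ex14 and 0.37, 0.68, 1.0 and 0.93 with HGF, without overlap. It rose by 1.58 ± 0.26 (adjusted p = 0.00449). Probe d, next to probe c on the other side, read 3.04, 2.66, 2.36 and 1.99 without and 2.93, 3.33, 2.68 and 2.72 with HGF in 16HBE-ex14, a difference of 0.40 ± 0.29 with an adjusted p of 0.599. Probe a, nearest to the start of the gene, differed by 0.28 ± 0.12 (adjusted p = 0.29). Of the 4 probes of this gene, 2 were thus called and 2 were not.

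LINC02454 was the next largest. It read -3.22, -3.51, -1.60 and -2.53 in 16HBE-ex14 and -1.39, -1.16, -0.73 and -0.82 with HGF, a rise of 1.69 ± 0.39 (adjusted p = 0.0288). Again 16HBE-ex14 replicate 3 was the highest array without HGF. In 16HBE-WT the values were -2.85, -2.71, -3.00 and -2.54 without and -1.68, -2.89, -1.38 and -2.64 with HGF, where 2 of the 4 HGF arrays lay above all controls. LINC00565, whose current RefSeq symbol is SWINGN, read -2.30, -2.53, -1.98 and -2.53 in 16HBE-ex14 and -1.31, -1.05, -0.71 and -0.90 with HGF, and -2.71, -2.86, -2.43 and -2.53 against -1.87, -2.59, -2.11 and -1.96 in 16HBE-WT. It rose by 1.34 ± 0.18 (adjusted p = 0.00157) in 16HBE-ex14, and the difference in 16HBE-WT was 0.50 ± 0.18.

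A pair of the raised probes started from a lower level in the edited cells. LINC01711 read -2.50, -2.57, -1.88 and -2.70 in 16HBE-ex14 and -0.98, -1.41, -1.0 and -1.75 with HGF (1.13 ± 0.23, adjusted p = 0.0176). Its 16HBE-WT arrays read -2.10, -1.32, -1.52 and -1.41. LINC01291 read -3.32, -3.16, -2.82 and -4.05 in 16HBE-ex14 and -2.02, -2.30, -2.23 and -2.41 with HGF (1.10 ± 0.25, adjusted p = 0.0305), while its 16HBE-WT arrays read -2.74, -2.04, -1.76 and -1.96. For both, the level without HGF was lower in 16HBE-ex14 than in 16HBE-WT, with differences of -0.83 ± 0.23 (adjusted p = 0.0233) and -1.21 ± 0.25 (adjusted p = 0.0039), a comparison that uses the same 4 arrays of 16HBE-ex14. With HGF the genotypes differed by -0.34 and -0.46, which did not pass. LINC01444, LINC01764 and LINC01588 probe a rose by less. LINC01444 read -3.42, -4.06, -3.58 and -3.60 in 16HBE-ex14 and -2.61, -2.89, -2.46 and -2.75 with HGF (0.99 ± 0.23, adjusted p = 0.0346). LINC01764 read 0.21, -0.09, 0.37 and 0.07 without and 0.54, 0.76, 1.11 and 0.93 with HGF (0.69 ± 0.16, adjusted p = 0.0294). LINC01588 probe a read -1.71, -1.55, -1.63 and -1.86 without and -1.04, -1.26, -1.04 and -1.05 with HGF (0.59 ± 0.14, adjusted p = 0.0317). In all 3 the groups did not overlap. The other probe of LINC01588 differed by 0.08.

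The 3 probes that fell were those of LINC00513, LINC01260 and LINC01615. LINC00513, a LINC RNA linked to interferon signalling, read 0.04, 0.15, 0.18 and 0.27 at probe b in 16HBE-ex14 and -1.04, -0.51, -1.23 and -1.09 with HGF, a difference of -1.13 ± 0.16 (adjusted p = 0.00181). The 16HBE-WT arrays read -0.50, -0.80, -0.45 and -0.55 without and -0.75, -0.45, -1.08 and -0.87 with HGF. The 4 arrays of 16HBE-ex14 without HGF were thus above the 12 others. Probe a of the same gene differed by -0.22 ± 0.29 (adjusted p = 0.823). LINC01260 read -1.38, -1.57, -1.43 and -1.14 in 16HBE-ex14 and -2.36, -2.09, -2.15 and -2.14 with HGF, against -0.97, -1.07, -0.89 and -0.84 and -1.24, -1.09, -1.24 and -1.10 in 16HBE-WT, and gave the smallest adjusted p of the members (-0.81 ± 0.10, adjusted p = 0.00146). LINC01615 probe a read -2.79, -2.71, -3.14 and -2.94 in 16HBE-ex14 and -3.52, -3.58, -3.40 and -3.50 with HGF. It differed by -0.61 ± 0.14 (adjusted p = 0.0283), and probe b, which did not pass, by -0.41 ± 0.12 (adjusted p = 0.0838).

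All 12 differences had the same sign on both slides. For LINC00565 they were 1.24 on slide 1 and 1.44 on slide 2, and for LINC02454 2.09 and 1.29. Replicate 3 of 16HBE-ex14 was the highest of its group in 7 of the 9 raised probes. Without that array the differences of LINC00941 probe c and LINC02454 were 2.11 and 2.06, and 18 member probes were called. The counts of calls with an array left out are not set beside the share of all tested probes. Leaving out replicate 2 or 4 of 16HBE-ex14, or replicate 3 of 16HBE-ex14+HGF, left 5 calls in each case, and leaving out 16HBE-ex14+HGF replicate 4 left 6. The probes of LINC00941 (b and c), LINC00565, LINC00513 (b) and LINC01260 were called whichever single array was left out. LINC01291 and LINC01615 probe a each lost the call without any 1 of 7 arrays, LINC02454, LINC01444, LINC01588 probe a and LINC01764 without any 1 of 6, and LINC01711 without any 1 of 3. With normexp background correction in place of the scanner's, 6 of the 12 calls were kept, those of LINC00941 (b and c), LINC00565, LINC02454, LINC01764 and LINC00513 (b).

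Over all members there was a small common shift. The level was higher in 16HBE-ex14+HGF than in 16HBE-ex14 for 363 of 495 probes (73.3%), with a median difference of 0.12 and quartiles of -0.01 and 0.23. Among all tested probes 59.2% were higher, with a median of 0.05. Among all probes detected on every array 54.6% were higher, with a median of 0.02. In 16HBE-WT 345 members (69.7%) were higher with HGF, with a median difference of 0.07. There, 59.5% of all tested probes were higher (median 0.04), and 58.9% of all probes detected on every array (median 0.03). More LINC probes were above background on the 16HBE-ex14+HGF arrays (920 to 1115) than on the 16HBE-ex14 arrays (791 to 966), and the part of this in the shift was not tested. The share of all probes above background was 55.7% to 60.3% on the former arrays and 52.2% to 57% on the latter. In 16HBE-ex14 the sign of the shift depended on the scaling. The members' median stayed above that of all tested probes under each scaling given here. With quantile normalization the median difference was 0.07 in the members and 0.0 in all tested probes. With array medians in place of the 75th percentile the median difference was -0.04 in the members and -0.11 in all tested probes, and the calls were 5 higher and 4 lower in place of 9 and 3. With the E1A spike-in controls the medians were -0.02 and -0.09, with 6 higher and 4 lower.

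The next question was whether the same RNAs respond through the normal receptor. No member changed in 16HBE-WT+HGF against 16HBE-WT by the limma test at adjusted p below 0.05, as for all 34600 tested probes (0%). At an unadjusted p below 0.05 there were 34 members, 6.87%, against 4.90% of all tested probes. The smallest adjusted p was 0.549, for LINC00662 probe e. That probe read 1.10, 1.22, 1.18 and 1.14 in 16HBE-WT and 1.56, 1.60, 1.55 and 1.65 with HGF, groups that did not overlap. The groups did not overlap in 19 members (3.84%), against 2.62% of all probes detected on every array. In the 12 probes called in 16HBE-ex14 the difference in 16HBE-WT had the same sign each time, and its ratio to that in 16HBE-ex14 had a median of 0.384 and a range from 0.187 to 0.633. The differences in 16HBE-WT were 0.62 for LINC00941 probe b, 0.63 for LINC02454, 0.64 for LINC01711, 0.35 for LINC01291, 0.62 for LINC01444, 0.44 for LINC01764 and 0.30 for LINC01588 probe a, and -0.21, -0.22 and -0.15 for the 3 that were lower. All 12 were thus smaller than in 16HBE-ex14. The 12 were chosen for a large difference in 16HBE-ex14, so the choice itself favours a smaller one in 16HBE-WT. The ratio was not taken over probes chosen without that comparison. Over all members the signs were the same in 64.0%, and in 67.9% of all probes detected on every array. The 2 HGF comparisons share no arrays.

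Whether the HGF responses of the genotypes differ was tested with the interaction of genotype and HGF. No member passed, as for all 34600 tested probes (0%), and 22 members (4.44%) had an unadjusted p below 0.05, against 4.62% of all tested probes. The smallest adjusted p was 0.452, for LINC00842 probe b. For LINC00513 probe b the difference of the responses was -0.92 ± 0.22 (log2 ± SE, adjusted p = 0.459), for LINC01260 -0.59 ± 0.14 (adjusted p = 0.459), for LINC00565 0.84 ± 0.25 (adjusted p = 0.743) and for LINC02454 1.06 ± 0.55 (adjusted p = 1). A larger response in 16HBE-ex14 was therefore not shown for any LINC RNA, and neither were equal responses.

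A further question was which LINC RNAs differ between the edited clone and 16HBE-WT. Without HGF, 34 member probes of 29 genes were called in 16HBE-ex14 against 16HBE-WT, which was 6.87% of the members, against 9.40% of all tested probes and 9.95% of all probes detected on every array. The 11 higher probes (9 genes) were 2.22% of the members, against 4.51% of all tested probes, and the 23 lower ones (20 genes) were 4.65%, against 4.88%. With HGF in both, 42 probes of 36 genes were called, 8.48% of the members, against 10.8% of all tested probes and 11.9% of all probes detected on every array. The 18 higher probes (15 genes) were 3.64%, against 5.32% of all tested probes, and the 24 lower ones (21 genes) were 4.85%, against 5.52%. Groups did not overlap in 31 of the 34 and in 39 of the 42. Over all members this was so for 14.9% and 16.0%, against 25.8% and 29.2% of all probes detected on every array. The share of LINC probes called was thus below that of all probes in both comparisons. The median absolute difference was 0.195 without and 0.201 with HGF in the members, against 0.22 and 0.233 in all probes detected on every array. The members were also dimmer and varied more within groups (median SD 0.26 against 0.20). The part of this in the share called was not tested. Called in both were 21 probes of 17 genes, 61.8% of the 34 and 21 of the 42, and all 21 had the same sign, 7 higher and 14 lower. These 2 comparisons share no arrays. Over all members their signs were the same in 76.8%, and in 82.4% of all probes detected on every array. The share of calls made in both was not counted over all probes.

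The split between higher and lower depended on the scaling. Without HGF, array medians gave 22 higher and 15 lower and the spike-in controls 29 and 14, in place of 11 and 23. With HGF the counts were 28 and 20, and 26 and 22, in place of 18 and 24. The median of all tested probes moved from -0.02 to 0.12 and 0.17 in the first comparison and from 0.00 to 0.09 and 0.08 in the second. The directions of the LINC probes called were the same under each of these scalings.

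LINC01127 was the most lowered without HGF. Probe b read -1.61, -1.31, -1.35 and -1.73 in 16HBE-WT and -3.12, -3.05, -2.94 and -3.33 in 16HBE-ex14, and -1.08, -1.01, -1.42 and -0.98 against -2.37, -2.51, -2.77 and -3.33 with HGF. All 8 arrays of the edited cells were below the 8 of 16HBE-WT cells. The differences were -1.61 ± 0.18 (log2 ± SE, adjusted p = 4.18e-05) and -1.63 ± 0.18 (adjusted p = 3.21e-05). Probe a, whose coordinates span 822 bases, gave -0.83 ± 0.19 and -0.90 ± 0.19, so the direction was the same at both probes and the size was not.

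LINC01615 had the smallest adjusted p of the members. Probe b read -2.74, -2.58, -2.63 and -2.52 in 16HBE-WT, -2.58, -2.88, -2.44 and -2.60 with HGF, -3.81, -3.86, -3.45 and -3.93 in 16HBE-ex14 and -4.14, -4.25, -4.23 and -4.06 with HGF. The 2 genotypes did not overlap. The differences were -1.15 ± 0.12 (adjusted p = 1.57e-05) without HGF and -1.55 ± 0.12 (adjusted p = 9.01e-07) with it, and those of probe a were -1.18 ± 0.14 and -1.63 ± 0.14. LINC01133, a LINC RNA described in cell invasion and epithelial change, read -1.05, -1.06, -0.79 and -1.09 in 16HBE-WT and -2.2, -2.16, -2.72 and -1.99 in 16HBE-ex14, and -1.72, -1.17, -1.79 and -0.91 against -2.79, -3.02, -3.03 and -2.73 with HGF. It differed by -1.27 ± 0.19 (adjusted p = 0.000429) and -1.5 ± 0.19 (adjusted p = 9.54e-05).

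LINC01238 (-0.98 ± 0.23 and -1.14 ± 0.23), LINC00891 on the X chromosome (-0.96 ± 0.22 and -1.0 ± 0.22) and LINC00649 (-0.89 ± 0.10 and -1.02 ± 0.10) were also lower in both comparisons. LINC00649 read -0.44, -0.39, -0.43 and -0.52 in 16HBE-WT and -1.34, -1.09, -1.49 and -1.43 in 16HBE-ex14, without overlap. LINC01238 read -0.22, -0.02, -0.50 and -0.59 in 16HBE-WT and -1.01, -0.80, -1.98 and -1.44 in 16HBE-ex14, while LINC00891 read -1.60, -1.55, -1.06 and -1.45 in 16HBE-WT against -2.74, -1.96, -2.68 and -2.10 in 16HBE-ex14. Both probes of LINC01119, which share 20 bases, were lower too, with differences of -0.65 ± 0.09 and -0.72 ± 0.12 without HGF. LINC00460, which has been studied in lung and other carcinomas, was called without HGF at probe a, with -2.24, -2.23, -1.91 and -2.22 in 16HBE-WT and -2.77, -4.02, -3.20 and -2.61 in 16HBE-ex14 (-1.0 ± 0.23, adjusted p = 0.00761). Replicate 2 of 16HBE-ex14 was the lowest there. With HGF its difference was -0.45 ± 0.23 (adjusted p = 0.208), and at probe b it was -0.57 ± 0.21 without HGF (adjusted p = 0.0715). LINC01260 was lower with HGF (-1.02 ± 0.10, adjusted p = 1.03e-05) and by less than 1.5-fold without it (-0.43 ± 0.10, adjusted p = 0.008).

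Among the probes that were higher in the edited cells, LINC01089 came first without HGF. This RNA, also called LIMT, is known as one that is lowered by epidermal growth factor in mammary cells. Probe b read -2.76, -3.36, -3.28 and -2.17 in 16HBE-WT and -1.92, -2.04, -1.36 and -1.45 in 16HBE-ex14, and -2.21, -2.81, -2.79 and -2.58 against -2.03, -1.38, -1.34 and -1.96 with HGF. The differences were 1.2 ± 0.26 (adjusted p = 0.00543) and 0.92 ± 0.26 (adjusted p = 0.0226). Probe a read 0.89, 1.03, 1.28 and 1.03 in 16HBE-WT and 1.45, 1.75, 1.81 and 1.89 in 16HBE-ex14 (0.67 ± 0.13, adjusted p = 0.00178). With HGF its difference of 0.58 fell just under the limit of 1.5-fold. With normexp background correction neither call of probe b was kept, and its call with HGF was lost without replicate 2 or 3 of 16HBE-WT+HGF or replicate 2 or 3 of 16HBE-ex14+HGF.

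LINC02298, at the 2 overlapping probes, was higher by 0.84 ± 0.13 and 0.84 ± 0.14 without HGF and by 0.74 ± 0.13 and 0.75 ± 0.14 with it. Probe a read -1.33, -1.30, -1.35 and -1.40 in 16HBE-WT, -0.67, -1.26, -1.33 and -1.34 with HGF and -0.51, -0.42, -0.48 and -0.63 in 16HBE-ex14, with 1 array of 16HBE-WT+HGF apart from its group. LINC00857, which has been studied in lung adenocarcinoma, read 0.24, 0.40, 0.33 and 0.52 at probe b in 16HBE-WT and 1.09, 1.02, 1.44 and 1.06 in 16HBE-ex14, and 0.80, 0.55, 0.57 and 0.64 against 1.41, 1.68, 1.55 and 1.5 with HGF. It was higher by 0.78 ± 0.11 (adjusted p = 0.000204) and 0.90 ± 0.11 (adjusted p = 5.18e-05), and its probe a was higher by 0.47 and 0.57, under the fold limit. LINC01569 probe a read -2.41, -2.59, -2.28 and -2.38 in 16HBE-WT and -1.75, -1.95, -1.52 and -1.72 in 16HBE-ex14, and -2.11, -2.33, -2.28 and -2.37 against -1.36, -1.25, -1.24 and -1.33 with HGF. It was higher by 0.68 ± 0.10 and 0.98 ± 0.10. LINC01563 read 2.82, 3.41, 3.20 and 2.88 in 16HBE-WT and 3.86, 3.86, 3.80 and 3.30 in 16HBE-ex14, and was higher by 0.62 ± 0.19 without and 0.87 ± 0.19 with HGF. LINC01184 probe d was higher as well, by 0.63 ± 0.16 and 0.72 ± 0.16. The last of the 14 probes lowered in both comparisons were LINC00174 (-0.68 and -0.75), LINC00337 (-0.87 and -0.69), LINC01273 probe a (-0.66 and -0.70) and LINC02113 (-0.89 and -0.76). The probe of LINC00174 shares 53 bases with one of GTF2IP20. LINC01578, now named CHASERR, a regulator of its neighbour CHD2, was higher without HGF (0.67 ± 0.13, adjusted p = 0.00267) and differed by 0.23 ± 0.13 with it.

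With HGF in both genotypes, several of the HGF-responsive probes also separated the genotypes. This comparison uses the same 16HBE-ex14+HGF arrays as the HGF comparison in those cells. For LINC00941 probe c, whose arrays are given above, the difference was 1.51 ± 0.31 (adjusted p = 0.00298), with no overlap. Without HGF it was 0.64 ± 0.31 (adjusted p = 0.184). LINC00565 differed by 1.14 ± 0.18 (adjusted p = 0.00042) with HGF and 0.30 ± 0.18 without. LINC01554, which was not called with HGF in 16HBE-ex14, read -3.14, -3.45, -3.31 and -2.77 in 16HBE-WT+HGF and -2.05, -2.12, -2.0 and -2.22 in 16HBE-ex14+HGF (1.07 ± 0.17, adjusted p = 0.000466). LINC02454 differed by 1.12 ± 0.39 with HGF and did not pass (adjusted p = 0.053).

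Within slides the signs held for all 34 and all 42 probes. With only 2 arrays per group, 10 and 6 probes were called within slides 1 and 2 without HGF, and 17 and 13 with HGF. With normexp background correction 9 of the 34 calls were kept, those of LINC00649, LINC00857 probe b, LINC01089 probe a, LINC01127 probe b, LINC01133, LINC01238, LINC01291, LINC01563 and LINC01615 probe a, and 17 of the 42. Without HGF, 11 of the 34 calls were lost when some single array was left out. Among those named here, LINC01711 lost it without any 1 of 6 arrays, LINC01563 of 5, LINC00472 probe b of 4 and LINC01184 probe d of 3, LINC00174 and LINC01273 probe a without 16HBE-ex14 replicate 3, and LINC01578 without 16HBE-WT replicate 3. With HGF this was so for 9 of the 42, LINC01089 probe b and, without 16HBE-ex14+HGF replicate 1, LINC00337 among them.

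Genes with several member probes let the calls of their probes be compared. A call at some probes only is not a tested difference between the probes. There were 73 such genes with 188 probes, and in 20 of them a call was made for some probes only. In 5 genes, LINC01089, LINC01119, LINC01127, LINC01615 and LINC02298, all member probes were called in the same comparison. The correlation of the probes of 1 gene across the 16 arrays, a description of probes that share arrays and RNA, had a median of 0.28 over the 73 genes. It was above 0.5 in 22 genes and below 0 in 16. Among the 20 genes with mixed calls it ran from -0.604 in LINC01535 to 0.956 in LINC01615. LINC00673 had 6 member probes, of which probe e alone was called, with -0.81, -1.10, -1.06 and -0.83 in 16HBE-WT+HGF and -1.72, -1.23, -1.67 and -1.98 in 16HBE-ex14+HGF (-0.70 ± 0.17, adjusted p = 0.0099). Its 5 other probes differed by -0.29 to 0.19. Of 5 probes of LINC00472, a LINC RNA described as low in breast tumours, probe b was called without HGF (0.77 ± 0.21, adjusted p = 0.02) and probe a gave 0.58 ± 0.20 (adjusted p = 0.0559). The 3 others lay between -0.20 and 0.17. In LINC01978 probe b was higher with HGF by 0.95 ± 0.17, while probe a differed by 0.10 and split by slide, at -0.03, 0.10, -0.91 and -0.87 in 16HBE-WT. In LINC00963, probe a of 6 was called with HGF (0.80 ± 0.19), and the others lay between -0.37 and 0.49. The other genes with mixed calls were LINC00460, LINC00513, LINC00518, LINC00857, LINC00941, LINC01001, LINC01146, LINC01176, LINC01184, LINC01273, LINC01535, LINC01569, LINC01588, LINC01605 and, in 1 comparison each, LINC01089 and LINC01615.

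Of 18 LINC names chosen for what is known of them, 7 were members. A name outside the members can be missing for the symbol used on the array as well as for its signal. LINC00941, LINC01133, LINC00472 and LINC00673 are described above. The 3 probes of LINC00467 differed by 0.22 to 0.35 with HGF in 16HBE-ex14, and none was called in any comparison. Both probes of LINC00707 differed by 0.59 ± 0.16 and 0.63 ± 0.19 with HGF in 16HBE-ex14 (adjusted p = 0.0679 and 0.108) and by 0.41 and 0.44 in 16HBE-WT, without a call. None of the 5 probes of LINC00662 passed both limits in any comparison.

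The protein-coding genes on either side of, or overlapping, each called LINC gene, taken from the RefSeq gene order, were read at their brightest probe. The shares of all tested probes given beside them, here and for the genotypes, cover probes of every kind and are not a like background. A share over protein-coding genes at their brightest probe was not made. For the 11 LINC genes called with HGF in 16HBE-ex14, 19 neighbours were tested and 2 were called, both in the direction of the LINC gene (10.5%, against 2.00% of all tested probes). HMGA2, a chromatin protein of embryonic and tumour cells, lies next to LINC02454. It read 1.40, 0.90, 2.08 and 1.11 in 16HBE-ex14 and 2.37, 2.81, 2.85 and 2.59 with HGF, and rose by 1.28 (adjusted p = 0.00511). Replicate 3 was the highest 16HBE-ex14 array there as well. CAPRIN2, which encodes an RNA-binding protein, lies next to LINC00941 and read 0.32, 0.05, 0.16 and -0.13 without and 0.89, 0.78, 0.99 and 0.88 with HGF, a rise of 0.78 (adjusted p = 0.00156). In 16HBE-WT both of these neighbours were higher with HGF, HMGA2 by 0.54 and CAPRIN2 by 0.32, without a call. TSPAN11, on the other side of LINC00941, differed by 0.12 in 16HBE-ex14. LINC00565 lies next to GAS6, a ligand of TAM receptors, which differed by -0.30, and RASA3, which differed by 0.60, without a call for either.

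For the genotype comparisons, 7 of 46 neighbours were called without HGF (15.2%, against 9.40% of all tested probes), 5 in the direction of the LINC gene and 2 against it. With HGF 12 of 56 were called (21.4%, against 10.8%), 9 in the same direction and 3 against it. IL1R2, the decoy receptor of interleukin 1, lies next to LINC01127 and read 2.24, 2.81, 2.74 and 2.39 in 16HBE-WT and 1.53, 1.51, 1.58 and 1.27 in 16HBE-ex14. It differed by -1.07 without HGF (adjusted p = 6e-05) and by -0.90 with it (adjusted p = 0.000203). SMOC2, a secreted matrix protein gene beside LINC01615, was called lower in 16HBE-ex14+HGF, but it was above background on 9 of 16 arrays, so no size is given. ADA, which encodes adenosine deaminase, lies next to LINC01260 and read 4.14, 4.20, 4.25 and 4.44 in 16HBE-WT+HGF and 3.63, 3.51, 3.35 and 3.57 in 16HBE-ex14+HGF, a difference of -0.74 (adjusted p = 0.000259). On the other side of LINC01260, CCN5 differed by -1.17. TFAP4, a transcription factor gene beside LINC01569 whose probe was above background on 14 of 16 arrays, read -3.88, -4.47, -3.96 and -3.39 in 16HBE-WT and -2.86, -3.17, -2.51 and -2.86 in 16HBE-ex14, and was higher by 1.07 without and 1.41 with HGF. The hexokinase gene HK2 beside LINC01291 differed by -0.83 without HGF. BDH1 beside LINC02012 and FAM174A beside LINC02113 went the other way, at 0.63 and 0.76 without HGF where the LINC probes differed by -0.79 and -0.89. Whether a LINC RNA and its neighbour share a cause was not tested.

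Promoter windows from RefSeq (GRCh38.p14, 250 bases before to 50 after the start) were found for 278 of the members' 379 matched genes. They were searched on both strands for TGANTCA, a loosened form of the AP-1 motif TGACTCA, which is bound by factors that act downstream of MAP kinases, for the cAMP response element TGACGTCA and for the TATA box TATAAA. The loosened motif occurred in 10.4% of the members' windows and in 7.76% of all 27305 windows in the table, TGACTCA itself in 6.47% and 4.92%, the TATA box in 10.8% and 12%, and the cAMP response element in 1.08% and 1.98%. The median number of CpG was 7 in the members and 14 in all windows. Of the 8 genes that rose with HGF in 16HBE-ex14, 5 had a window, and none of the 5 held TGANTCA. Of the 3 that fell, 2 had one, LINC00513 and LINC01615, and both held it 2 times. Both matches of LINC01615 were TGACTCA, on one strand or the other, and neither match of LINC00513 was. These 2 windows are printed since they hold the motif, with the motifs in capitals, TGANTCA in both and 1 TATA box near the 5′ end of that of LINC00513.
LINC00513 promoter (chr7:130913214-130913513, + strand): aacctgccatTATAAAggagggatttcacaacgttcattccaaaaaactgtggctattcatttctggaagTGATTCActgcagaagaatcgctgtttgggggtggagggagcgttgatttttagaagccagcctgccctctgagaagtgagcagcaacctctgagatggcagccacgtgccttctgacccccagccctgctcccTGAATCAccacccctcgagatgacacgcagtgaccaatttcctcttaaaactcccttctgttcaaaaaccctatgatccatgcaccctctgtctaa
LINC01615 promoter (chr6:169162940-169163239, - strand): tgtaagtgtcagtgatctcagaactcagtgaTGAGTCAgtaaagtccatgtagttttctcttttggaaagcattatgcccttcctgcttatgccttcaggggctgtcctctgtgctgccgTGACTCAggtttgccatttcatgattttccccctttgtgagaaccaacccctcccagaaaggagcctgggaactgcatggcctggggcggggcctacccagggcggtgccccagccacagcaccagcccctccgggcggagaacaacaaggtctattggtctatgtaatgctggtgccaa
LINC00460 also held TGACTCA 2 times. A match gives the letters only and not a bound site.

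Long noncoding RNAs without a LINC number were read beside the members from a list of 47, of which 42 were tested and 39 were above background on every array. None was called with HGF in either genotype, with medians of 0.06 in 16HBE-ex14 and 0.19 in 16HBE-WT. Without HGF 7 were higher in 16HBE-ex14 and 2 lower (21.4%, against 9.40% of all tested probes), and with HGF 2 were higher and 2 lower (9.52%, against 10.8%). The 7 were GAS5, EPB41L4A-AS1, ZFAS1, SNHG1, SNHG8, SNHG15 and SNHG17, most of which host small nucleolar RNAs, with differences from 0.63 to 0.87. The 2 that were lower in both comparisons were UCA1 (-0.59 and -0.67) and MIR210HG, the host of a microRNA induced by hypoxia, which was above background on 8 of 16 arrays and for which no size is given. MALAT1 differed by 0.54 (adjusted p = 0.0504) and NEAT1 by -0.04 without HGF.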

How the data were processed

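The members, gene lists and tests were chosen with earlier results of these data known. Per the file headers, the authors scanned 1-colour Agilent 60-mer arrays with Feature Extraction 10.7.3.1, which subtracted the background and wrote the intensity of each spot as a processed signal. The intensities deposited as a value table were equal to those of the scanner files on all 16 arrays. Log2 was taken of each spot, control spots aside, and each array's 75th percentile was subtracted. The spots of a probe were then averaged without those flagged as outliers.

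The 34600 probes that passed the background test on 4 or more arrays were fitted with limma 3.58.1 in R 4.3.3 (lmFit, contrasts.fit, eBayes), with 1 mean per group and all 16 arrays. A call needs a Benjamini-Hochberg adjusted p below 0.05 over all tested probes and a fold above 1.5. The script was tested on simulated data. Genes are named if called, fixed in a list, or among the extremes of level and spread, and 494 of 495 member probes were matched to RefSeq names (35 genes have a newer symbol). Coordinates are hg19 from the file headers. The number of arrays limits the precision, and 12 of the 60-base member probes share at least 25 bases with a probe of another gene name. Other background corrections, scalings, filters, blocks, priors and arrays left out were tried. Tables were made in Python 3.11.15 with pandas 2.3.3 and numpy 2.4.6.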

Additional observations from a re-analysis of the deposited data

Results flagged for a closer look

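Among 92 groups of 4 arrays (23 LINC probes), 4 held an array far from the other 3, with a gap of 0.849 to 0.957 of the group's range, and chance gives about 1 in 20. For LINC01133, 16HBE-WT replicate 3 read -0.79, where the others read -1.09 to -1.05. For LINC02298 probe a, 16HBE-WT+HGF replicate 1 read -0.67, where the others read -1.34 to -1.26. For LINC00460 probe a, 16HBE-WT replicate 3 read -1.91, where the others read -2.24 to -2.22. For LINC00857 probe b, 16HBE-ex14 replicate 3 read 1.44, where the others read 1.02 to 1.09.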

How the results depend on the processing

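Counts of LINC probes called are given in the order HGF in 16HBE-ex14, genotype without HGF and genotype with HGF, against 12, 34 and 42. They are not set beside the share of all tested probes in the same setting, so a change need not be particular to LINC probes. No LINC probe was called with HGF in 16HBE-WT or in the interaction under any alternative run, and no called LINC probe changed sign. The members' median HGF difference in 16HBE-ex14 did, from 0.12 to -0.04 with array medians and -0.02 with spike-in scaling. It stayed above the median of all tested probes, which was -0.11 and -0.09 under these scalings. Normexp background correction gave 6, 9 and 18 calls, no filter on dim probes gave 6 for HGF in 16HBE-ex14, and testing the fold change limit itself (treat) gave 0, 3 and 7. Without a fold limit the genotype counts were 65 and 75. Within slide 1 there were 0, 10 and 17 calls and within slide 2 there were 0, 6 and 13, with 2 arrays per group. Leaving out 1 array gave 5 to 18, 31 to 39 and 38 to 50. The lowest HGF counts came without replicate 2 or 4 of 16HBE-ex14 or replicate 3 of 16HBE-ex14+HGF, and the highest without 16HBE-ex14 replicate 3. Calls kept whichever array was left out were 5 of 12, 23 of 34 and 33 of 42. Array medians moved the higher calls from 9 of 12, 11 of 34 and 18 of 42 to 5 of 9, 22 of 37 and 28 of 48, and spike-in scaling moved them to 6 of 10, 29 of 43 and 26 of 48. Other alternatives gave counts within 1.5 times, and the cause of a change was not tested.

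With the array row, which shares its number with the replicate, as a block the counts were 16, 38 and 44. Deviations of arrays in the same row correlated at a median of 0.20 and those of the other row of the slide at 0.21, so the replicate numbers were not shown to pair the arrays. Many members lie near background, with a median level of -1.80.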
